A study of Homo sapiens with 4 samples.

Results

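The 8 transcription factors HNF4A, FOXA1, FOXA2, FOXA3, CEBPA, NR1H4, ONECUT1 and PROX1, which set the identity of hepatocytes, were examined in MHCC97H cells after knockdown of UBXN1. With earlier results of these data known, they were chosen by name, as factors known to act in hepatocytes. They were read from the count table by gene ID. They are 8 of the 61541 gene IDs in the table and 8 of the 16863 genes with enough counts to test. MHCC97H is an established human hepatocellular carcinoma (HCC) cell line, and UBXN1 is a UBX domain protein that works with the AAA-ATPase VCP. The study asked how loss of UBXN1 alters gene expression in HCC cells.

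RNA was sequenced from 2 libraries of control cells (shCon) and 2 libraries of UBXN1-knockdown cells (shUBXN1). Both groups carried a short hairpin RNA, which the methods place in the lentiviral vector pLKO.1, and no drug treatment is given for either. The methods name the control hairpin shRFP, whereas the labels name it shCon, and which UBXN1 hairpin the sequenced cells carried is not given in the sources used here. Nothing says that the 2 libraries of a group came from separate cultures, so the p-values below measure only the spread between these libraries, which may be technical. RNA was measured in bulk, so fewer cells of a type and less RNA per cell cannot be told apart.

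In adult liver these factors bind one another's promoters and enhancers and together keep hepatocyte genes active. FOXA1, FOXA2 and FOXA3 are forkhead proteins that open closed chromatin at liver enhancers. HNF4A is the nuclear receptor at the centre of the network, CEBPA is the leucine zipper factor of the quiescent, metabolically active hepatocyte, and NR1H4 (FXR) is the bile acid receptor. ONECUT1 (HNF6) and PROX1 act early, when liver progenitors form and settle between hepatocyte and bile duct fates, and PROX1 also acts as a corepressor of HNF4A and NR5A2.

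The promoters of these genes are shown because the factors are known to act on one another through such regions, and because HNF4A has 2 promoters that a count per gene cannot separate. The sequences are from RefSeq on GRCh38.p14, 6 of the 8 genes having an entry, and each holds the 250 bases before an annotated start site in the direction of the gene. The HNF4A promoter P1 (chr20:44400989-44401238, plus strand) drives the isoforms of adult hepatocytes, and P2 (chr20:44355449-44355698, plus strand) drives isoforms of fetal liver, gut and pancreatic islets. The CEBPA window is chr19:33302535-33302784 (minus strand), the FOXA1 window is chr14:37595250-37595499 (minus strand) and the NR1H4 window is chr12:100503110-100503359 (plus strand). In the GENCODE annotation the NR1H4 window lies in an intron of the longer transcripts, and part of the FOXA1 window lies in an exon of a FOXA1 transcript with no defined coding sequence. Capitals mark every match to the motifs searched on both strands.
HNF4A P1: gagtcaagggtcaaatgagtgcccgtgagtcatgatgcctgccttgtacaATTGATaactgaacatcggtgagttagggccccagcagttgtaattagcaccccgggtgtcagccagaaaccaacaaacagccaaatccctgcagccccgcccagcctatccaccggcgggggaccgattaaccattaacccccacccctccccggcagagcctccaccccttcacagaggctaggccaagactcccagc
HNF4A P2: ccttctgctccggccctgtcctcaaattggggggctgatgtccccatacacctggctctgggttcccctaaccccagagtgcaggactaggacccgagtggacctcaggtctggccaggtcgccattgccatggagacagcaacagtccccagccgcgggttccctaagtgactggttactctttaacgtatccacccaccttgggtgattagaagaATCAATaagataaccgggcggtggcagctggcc
NR1H4: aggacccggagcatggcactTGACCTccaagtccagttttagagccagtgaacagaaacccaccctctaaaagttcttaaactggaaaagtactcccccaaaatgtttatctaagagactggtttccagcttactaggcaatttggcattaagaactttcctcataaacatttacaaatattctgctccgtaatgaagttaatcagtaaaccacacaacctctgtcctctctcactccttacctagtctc
FOXA1: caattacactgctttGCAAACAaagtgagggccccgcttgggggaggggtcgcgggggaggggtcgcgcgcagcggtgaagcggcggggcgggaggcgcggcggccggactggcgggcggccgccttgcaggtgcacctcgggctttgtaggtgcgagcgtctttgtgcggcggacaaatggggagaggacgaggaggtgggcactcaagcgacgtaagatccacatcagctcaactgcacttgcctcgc
CEBPA: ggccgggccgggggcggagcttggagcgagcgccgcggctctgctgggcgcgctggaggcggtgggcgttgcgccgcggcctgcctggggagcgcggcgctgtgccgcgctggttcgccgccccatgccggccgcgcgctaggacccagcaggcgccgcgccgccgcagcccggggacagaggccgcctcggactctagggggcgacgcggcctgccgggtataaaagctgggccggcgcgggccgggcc

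The P1 window of HNF4A holds the ONECUT motif ATTGAT at positions -200 to -195 from the start site, and the P2 window holds the same motif as its reverse complement ATCAAT at -33 to -28. The NR1H4 window has the nuclear receptor motif AGGTCA as TGACCT at -230 to -225. The FOXA1 window has the FOXA motif TGTTTGC as GCAAACA at -235 to -229. In the other windows, FOXA3 held 1 match to AGGTCA, and CEBPA and ONECUT1 held none of the letters searched. Of 35116 RefSeq promoters cut to the same length, 5.58% hold the ONECUT motif, 8.27% the FOXA motif searched as TGTTTAC, its variant TATTTAC or the further variant TGTTTGC, 12.9% the nuclear receptor motif AGGTCA or its alternative AAAGTCCA, and 1.62% the CEBP motif TTGCNNCAA. A match describes letters in a window and not a bound site.

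The libraries held 23373700 to 27380508 counts, and replicates differed by more than sampling noise, with a chi-square per degree of freedom of 3.65 in shCon and 7.77 in shUBXN1. UBXN1, the gene targeted, had 1788 and 1817 counts in shCon and 416 and 433 in shUBXN1, a log2 fold change of -2.03 (SE 0.0963). Counts on the mitochondrial genome took 5.28% and 5.59% of the shCon libraries and 7.43% and 8.27% of the shUBXN1 libraries, and their part in the results below was not tested. Of 14 hepatocyte marker genes, 8 had at least 20 counts in every library, while APOA2 and HP had at most 10 in every library. Their summed level was 203 to 216 CPM (counts scaled to the effective library size) in shCon and 76.5 to 79.9 CPM in shUBXN1, with 9 called lower and 1, SERPINA1, called higher. Albumin had 479 and 403 counts against 104 and 112, and AFP 157 and 129 against 133 and 92. The line expressed part of the hepatocyte programme, with low counts for several secreted proteins. Among the markers of other cells, PTPRC had at most 4 counts and CD3E and MS4A1 had 0 in every library. By contrast, CD68 had 1650 to 2198 counts, PECAM1 779 to 1065 and KDR 371 to 1324. Of the CD68 exon bases, 81.6% are shared with another gene on the same strand, which leaves its counts uncertain.

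All 8 factors had enough counts to test, and 6 of them fell in shUBXN1 cells at an adjusted p under 0.05. These 6 were CEBPA, PROX1, FOXA1, FOXA2, NR1H4 and HNF4A. None was called higher, FOXA3 and ONECUT1 not passing the test. Of all 16863 genes tested, 28.2% were called lower and 28.0% higher by the same rule, so calls are common in this comparison. With calls made at a fold change of at least 2 where the unadjusted p was under 0.05, 3 of the 8 were called lower and none higher, where 6.09% of all genes were called lower and 11.8% higher. The median log2 fold change of the 8 factors was -0.56, against 0.016 over all genes tested. Adjusted p-values come from the quasi-likelihood test of edgeR, corrected by the Benjamini-Hochberg method over all genes tested, and an exact permutation of 2 libraries against 2 cannot go below 0.333 for a single gene.

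**Figure D1:**
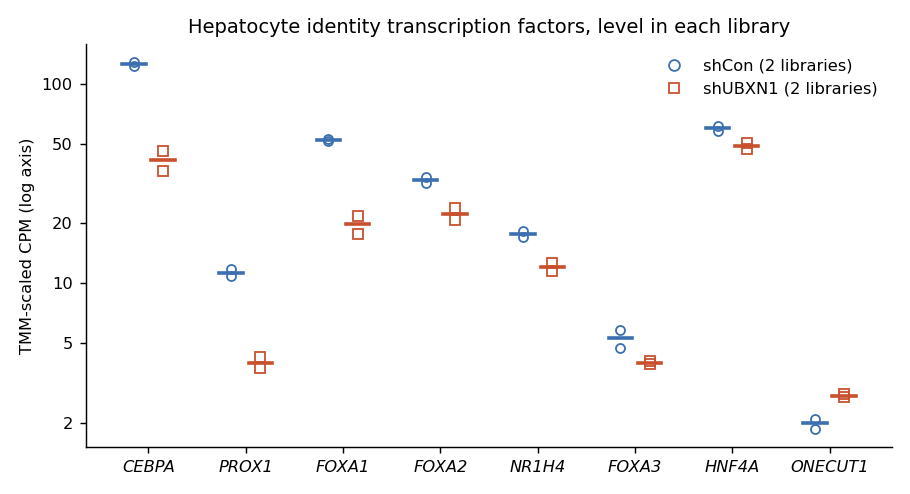
TMM-scaled CPM of the 8 factors in each library, on a log axis. Circles are the 2 shCon libraries, squares are the 2 shUBXN1 libraries and bars are group means. The shUBXN1 libraries lie below both shCon libraries for 7 of the genes and above them for ONECUT1. FOXA3 and ONECUT1 separate in this way without passing the test. The share of all genes tested that separate was not counted, so these numbers cannot be judged against it. With 2 libraries against 2, an exact permutation cannot go below 0.333 even where groups separate fully.

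CEBPA had the highest level per length of the 8 genes and the largest fall. Its counts were 3281 and 3010 in the shCon libraries and 907 and 1077 in the shUBXN1 libraries, or 123 and 128 CPM against 36.6 and 46.0 CPM. Both shUBXN1 libraries were far below both shCon libraries. The mean went from 126 ± 3.58 CPM to 41.3 ± 6.61 CPM (SD, n = 2 each), which is 32.9% of the control level (log2 fold change -1.60, 95% CI -1.81 to -1.40, adjusted p = 7.69e-09). Only 2.03% of the genes tested had a lower log2 fold change. CEBPA is a gene of 1 exon (ENSG00000245848, GRCh38 chromosome 19, 33299934 to 33302534, minus strand). Antisense lncRNA genes cover 43.9% of its bases, and whether strand was used in counting is not given in the sources used here. These 2 antisense genes, ENSG00000267580 and ENSG00000267727, had between 0 and 5 counts in any library.

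Of the 3 FOXA genes, FOXA1 and FOXA2 fell, by unequal amounts, and FOXA3 did not pass the test. FOXA1 (ENSG00000129514, chromosome 14, 37589552 to 37596059, minus strand) had 1373 and 1239 counts in shCon and 440 and 508 in shUBXN1, or 51.5 and 52.7 CPM against 17.8 and 21.7 CPM. It fell to 37.8% of its control level (log2 fold change -1.40, SE 0.0993, adjusted p = 4.03e-08). FOXA2 (ENSG00000125798, chromosome 20, 22580998 to 22585455, minus strand) had 848 and 805 counts against 513 and 556, or 31.8 and 34.3 CPM against 20.7 and 23.7 CPM. Its fall was smaller, to 67.3% (log2 fold change -0.57, SE 0.0994, adjusted p = 0.000216). The 95% CIs of these changes, -1.61 to -1.19 for FOXA1 and -0.78 to -0.36 for FOXA2, did not overlap. FOXA3 (ENSG00000170608, chromosome 19, 45863989 to 45873797, plus strand) had the lowest level of the family, with 127 and 137 counts in shCon and 101 and 92 in shUBXN1. Its shUBXN1 libraries lay at 4.08 and 3.93 CPM, below the 4.76 and 5.83 CPM of shCon, but the difference did not pass the test (log2 fold change -0.40, 95% CI -0.86 to 0.062, adjusted p = 0.130). At this depth a fall to about the size seen in FOXA2 and no change both lie within that interval.

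HNF4A, the receptor on which much of the adult network depends, changed by the smallest amount of the 6 called genes. The gene (ENSG00000101076, chromosome 20, 44355699 to 44432845, plus strand) had 1541 and 1451 counts in shCon and 1161 and 1179 in shUBXN1, or 57.8 and 61.8 CPM against 46.9 and 50.4 CPM. The groups did not overlap, and the mean fell to 81.4% of control (log2 fold change -0.30, SE 0.0793, adjusted p = 0.00537). Without replicate 2 of shCon the log2 fold change was -0.25 and no longer passed the test (adjusted p = 0.0946). Counts from P1 and P2 are summed here, so a change in the use of the promoters was not measured. NR1H4 (ENSG00000012504, chromosome 12, 100473708 to 100564414, plus strand), the bile acid receptor that limits bile acid synthesis, had 490 and 401 counts in shCon and 314 and 269 in shUBXN1. Its level was 18.4 and 17.1 CPM against 12.7 and 11.5 CPM, a fall to 68.2% (log2 fold change -0.55, SE 0.119, adjusted p = 0.00123).

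Of PROX1 and ONECUT1, PROX1 fell and ONECUT1 did not pass the test. PROX1 (ENSG00000117707, chromosome 1, 213983181 to 214041510, plus strand) had 314 and 256 counts in shCon and 93 and 100 in shUBXN1, or 11.8 and 10.9 CPM against 3.76 and 4.27 CPM. It fell to 35.4% of control (log2 fold change -1.50, SE 0.167, adjusted p = 3.46e-06). On the log2(TPM + 1) scale, where TPM is the level scaled for gene length as well as library size and the added 1 shrinks changes of low genes, limma gave -0.90. ONECUT1 (ENSG00000169856, chromosome 15, 52755053 to 52791078, minus strand) was near the lower end of what the libraries could measure, with 56 and 44 counts in shCon and 69 and 63 in shUBXN1. Both shUBXN1 libraries, at 2.79 and 2.69 CPM, were above the shCon libraries at 2.10 and 1.87 CPM, but the difference did not pass the test (log2 fold change 0.46, 95% CI -0.17 to 1.10, adjusted p = 0.203).

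**Figure D2:**
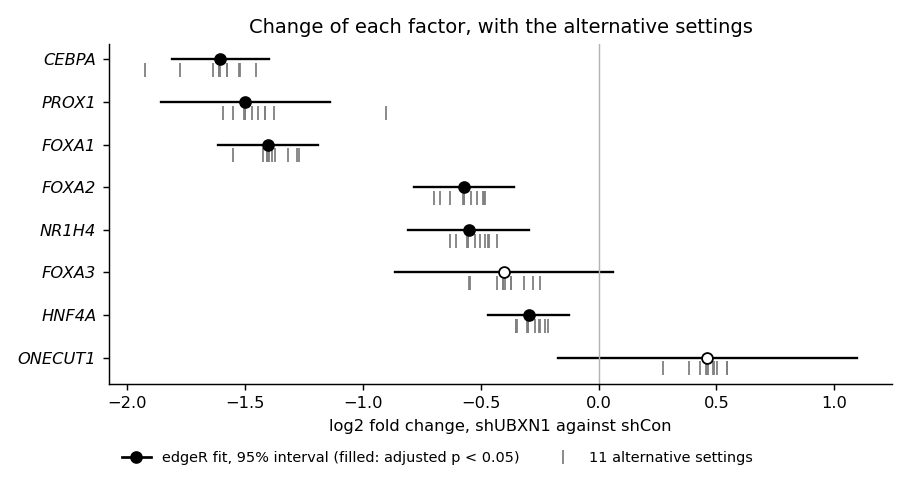
Log2 fold change (shUBXN1 against shCon) of each factor with its 95% CI from edgeR, filled where the adjusted p was under 0.05, with the 11 alternative settings as ticks below it. CEBPA, PROX1 and FOXA1 lie between -1.60 and -1.40, FOXA2, NR1H4 and HNF4A between -0.57 and -0.30, and the intervals of FOXA3 and ONECUT1 cross 0.

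Compared per length, as TPM, the order of the factors differed between the groups. In shCon cells CEBPA stood first at 96.8 ± 0.702 TPM (SD, n = 2, as for the values that follow). FOXA1 came next at 29.8 ± 0.128 TPM, then FOXA2 at 26.1 ± 0.822, HNF4A at 25.3 ± 0.651 and NR1H4 at 23.9 ± 1.75. FOXA3 at 5.52 ± 0.671, PROX1 at 2.78 ± 0.212 and ONECUT1 at 0.916 ± 0.0935 were well below these. FOXA2, HNF4A and NR1H4 were neighbours whose libraries overlapped. In shUBXN1 cells CEBPA was still first at 33.1 ± 3.57 TPM, but HNF4A was second at 21.4 ± 0.0516. FOXA2 at 18.3 ± 0.797 and NR1H4 at 17.0 ± 2.08 followed, with overlapping libraries, and FOXA1 now came after them at 11.7 ± 1.03. ONECUT1 at 1.32 ± 0.102 TPM lay above PROX1 at 1.02 ± 0.0389 TPM. In CPM, which is not scaled for length, the summed level of the 8 factors was 301 to 313 in shCon and 145 to 164 in shUBXN1. CEBPA alone gave a mean of 126 CPM of this in shCon and 41.3 CPM in shUBXN1.

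Because paralogs of a family bind the same motif, each factor was also expressed as a share of its family's summed TPM, a set of families chosen after the values were seen and given without a test. FOXA1 made up 49.4% and 47.6% of FOXA transcripts in shCon and 33.0% and 35.2% in shUBXN1. FOXA2 went from 42.2% and 42.8% to 53.2% in both shUBXN1 libraries. The most abundant FOXA transcript was therefore FOXA1 in each control library and FOXA2 in each knockdown library, while the family sum went from 60.4 and 62.3 TPM to 33.3 and 35.4 TPM. CEBPA held 41.2% and 42.2% of the transcripts of CEBPA, CEBPB, CEBPD and CEBPG in shCon and 14.3% and 16.2% in shUBXN1. CEBPB, the acute-phase and regeneration paralog, held 28.6% and 28.3% in shCon and 46.2% and 45.4% in shUBXN1. The sum of this family moved far less than its make-up, from 234 and 231 TPM to 213 and 219 TPM. The ratio of CEBPA to CEBPB TPM was 1.44 and 1.49 in shCon and 0.310 and 0.357 in shUBXN1, so the order of these 2 genes turned over in both knockdown libraries.

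The other CEBP genes rose or did not pass the test. CEBPB had 1610 and 1428 counts in shCon and 2070 and 2132 in shUBXN1, and rose to 144% of control (log2 fold change 0.53, adjusted p = 4.01e-05), with 12.6% of its exon bases covered by an antisense gene. CEBPD, a paralog induced by inflammatory signals, rose from 9.90 ± 0.151 to 20.4 ± 0.448 CPM (log2 fold change 1.04, adjusted p = 3.28e-06). For CEBPG, whose products lack an activation domain, the log2 fold change was -0.15 (adjusted p = 0.107). Within the HNF4 family, HNF4G fell to 54.6% of control, from 1023 and 835 counts to 473 and 499 (log2 fold change -0.87, SE 0.0967), and the share of HNF4A went from 57.2% and 60.6% to 68.5% and 67.7%. The ONECUT1 paralog ONECUT2 rose (log2 fold change 0.49, adjusted p = 0.0146), and ONECUT3 had at most 9 counts in any library.

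**Figure D3:**
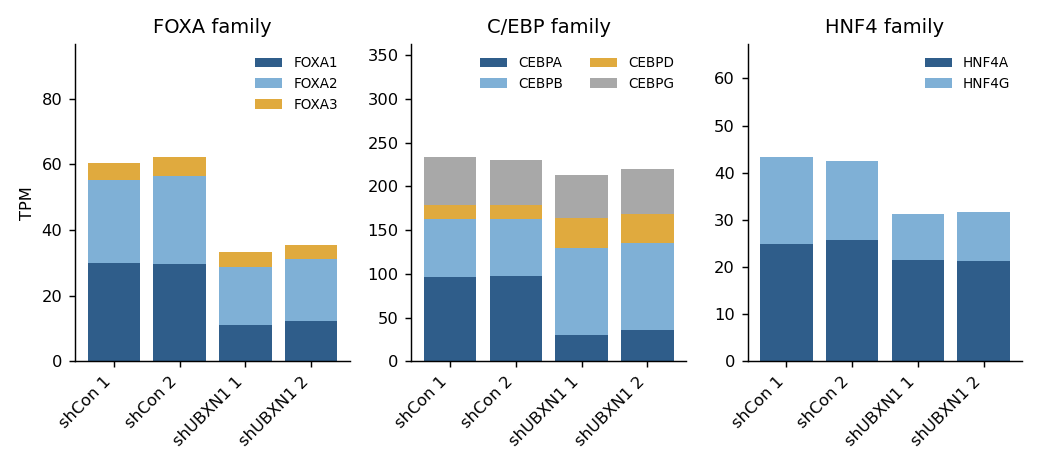
Stacked TPM of the members of the FOXA, CEBP and HNF4 families in each of the 4 libraries, each panel with its own axis starting at 0. The FOXA and HNF4 stacks are shorter in shUBXN1 than in shCon, while the CEBP stack keeps most of its height with a smaller part from CEBPA.

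Changes in both directions were found among the remaining factors of the liver network. Of 48 other liver-enriched transcription factors, 42 could be tested, of which 18 were called lower (42.9%, against 28.2% of all genes) and 12 higher (28.6%, against 28.0%), with a median log2 fold change of -0.14. At a fold change of 2 or more, 3 fell (7.14%) and 6 rose, both shares being near the 6.09% and 11.8% of all genes. XBP1, the secretory stress factor of protein-producing cells, fell from 2663 and 2387 counts to 943 and 932 (log2 fold change -1.37, adjusted p = 3.67e-09). SREBF1, the regulator of lipid synthesis, fell to 47.8% of control. In the other direction, the repressor BCL6 rose from 1654 and 1401 counts to 7601 and 6067 (log2 fold change 2.22, adjusted p = 2.28e-10). KLF6 rose from 1589 and 1463 counts to 3160 and 3270 (log2 fold change 1.13), and the clock receptor RORA from 32 and 27 to 91 and 73 (log2 fold change 1.53, adjusted p = 0.000875). NR0B2, the repressor that NR1H4 is known to induce, had at most 3 counts in any library.

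**Figure D4:**
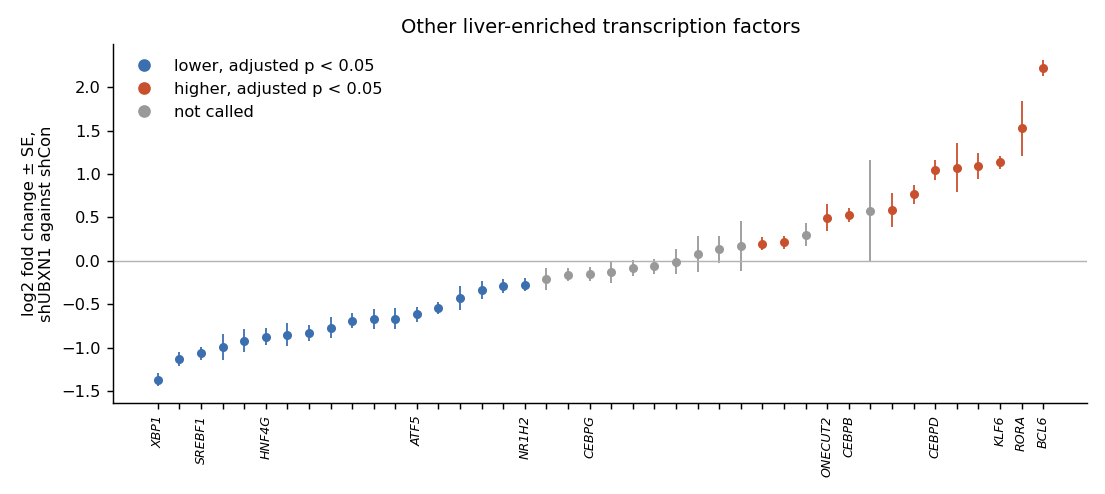
Log2 fold change (shUBXN1 against shCon, edgeR) with its SE for the 42 other liver-enriched transcription factors that could be tested, in order of their change and coloured by the call at an adjusted p under 0.05, with names for genes described in the text. The 18 called lower reach -1.37 at XBP1, and the 12 called higher reach 2.22 at BCL6.

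Most cofactors through which the 8 factors act changed by less than a fold change of 2. Of 24 listed, 22 were tested, 11 were called lower (50%, against 28.2% of all genes) and 3 higher (13.6%, against 28.0%), with a median of -0.17, and the number called lower was 7 when either shCon replicate was left out. None of those called lower reached that size. Among these were the acetyltransferase CREBBP at -0.60 and the SWI/SNF ATPase SMARCA4 at -0.54. The 3 that rose were all Groucho corepressors of the TLE family, which forkhead factors are known to recruit. The family did not rise as a whole. TLE1, its listed gene with the highest TPM, had 3056 and 2737 counts in shCon and 2506 and 2548 in shUBXN1. It did not pass the edgeR test (log2 fold change -0.14, adjusted p = 0.126). TLE2 had 1 and 2 counts in shCon and 58 and 32 in shUBXN1, a ratio of 31.2 with a counting interval of 10.4 to 154. TLE4 rose from 27 and 13 counts to 60 and 41 (log2 fold change 1.40, adjusted p = 0.0102), a call lost without replicate 2 of shCon (adjusted p = 0.0858) or replicate 1 of shUBXN1 (adjusted p = 0.0651). TLE3 had a log2 fold change of 0.56. PPARGC1A, a coactivator of HNF4A in gluconeogenesis, had at most 2 counts.

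Genes that HNF4A, FOXA proteins and CEBPA are known to activate in hepatocytes were also read, and many of them fell. Of 49 such genes, 7 had 0 counts in every library, APOC3, PCK1, G6PC1, ARG1, F9, OTC and SLC2A2, and 34 could be tested. Among these, 17 were called lower (50%, against 28.2% of all genes) and 6 higher (17.6%, against 28.0%), with a median of -0.70. At a fold change of 2 or more, 13 fell (38.2%, against 6.09% of all genes) and 6 rose (17.6%, against 11.8%). Of those that fell, FGB, TTR, TM4SF4, FGG and F7 had under 10 counts in a shUBXN1 library and passed the filter only through shCon. Likewise CYP2E1, VTN, F10 and CYP3A4, which rose, had under 10 counts in a shCon library and passed only through shUBXN1. The shares above include these genes. FGB, a fibrinogen chain, fell from 259 and 234 counts to 20 and 9 (log2 fold change -4.02, adjusted p = 3.80e-08). TM4SF4, a tetraspanin-like protein of liver and gut, fell from 59 and 37 counts to 6 and 9 (log2 fold change -2.59). A1CF, an RNA-binding factor of the apolipoprotein B editing complex, fell from 741 and 660 counts to 128 and 132 (log2 fold change -2.37). Albumin and transferrin both fell to 25.6% of control. The list also held genes that rose, from low and from higher levels. ASS1, a urea cycle enzyme named after its values were seen, rose from 335 and 284 counts to 1382 and 1367 (log2 fold change 2.21, adjusted p = 2.46e-10), and SERPINA1 from 219 and 212 to 270 and 276 (log2 fold change 0.40, adjusted p = 0.0271). CYP2E1, the ethanol-metabolising cytochrome, went from 5 counts in both shCon libraries to 171 and 170 (log2 fold change 5.12), with 25.4% of its exon bases covered by genes on the other strand. Vitronectin (VTN) went from 3 and 9 counts to 57 and 62 (log2 fold change 3.33), with 17.3% of its exon bases shared with another gene on the same strand, and coagulation factor X (F10) from 13 and 4 to 66 and 59 (log2 fold change 2.93). With the requirement of 10 counts in every library, the number called higher was 3.

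Genes of bile acid handling under NR1H4 were read as well. Of 30 listed, 15 had at most 10 counts in every library, 15 could be tested, 6 were called lower (40%, against 28.2% of all genes) and 3 higher (20%, against 28.0%), and the median was -0.29. With no filter on low counts the median of the list was 0.013. SLC51B, a subunit of the basolateral bile acid exporter and a direct target of NR1H4, fell from 449 and 437 counts to 109 and 100 (log2 fold change -2.03). CYP27A1, a bile acid synthesis enzyme, fell from 1896 and 1810 counts to 574 and 525 (log2 fold change -1.70). FGFR4, the receptor for the gut hormone FGF19, fell from 1508 and 1446 to 536 and 546 (log2 fold change -1.39). By contrast ABCB11, the canalicular bile salt export pump and likewise a direct target, rose from 134 and 101 counts to 286 and 235 (log2 fold change 1.21). BAAT, which conjugates bile acids, rose from 900 and 809 counts to 1775 and 1821 (log2 fold change 1.13). SLCO1B3, a bile acid and drug importer, rose from 120 and 108 to 240 and 201 (log2 fold change 1.01), with 54.5% of its exon bases shared with a readthrough gene on the same strand.

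Transcripts listed as neighbours or antisense RNAs of the 8 genes were also counted, but some lie far from their factor. The gap between the genes is 722663 bases for WDR72 and ONECUT1, 1066934 for NKX2-2 and FOXA2, and 1132533 for CHPT1 and NR1H4. The shares below therefore do not describe adjacent genes alone. Of 14 named neighbours and antisense RNAs, 12 were matched to the table and 8 could be tested, with 4 called lower (50%) and 1 higher (12.5%), again beside 28.2% and 28.0% of all genes. LINC00261, a lncRNA whose gene lies 2356 bases from FOXA2 on the same strand (chromosome 20, 22547663 to 22578642), had 283 and 240 counts in shCon and 25 and 9 in shUBXN1. It fell to 6.80% of its control level (log2 fold change -3.88, SE 0.295, adjusted p = 7.87e-08), whereas FOXA2 itself fell to 67.3%. TTC6, which starts 430 bases from FOXA1 on the opposite strand, fell with it, from 48 and 45 counts to 13 and 10 (log2 fold change -1.95, adjusted p = 0.00148). CEBPA-DT, which starts 323 bases from CEBPA on the opposite strand, fell from 100 and 78 counts to 54 and 47 (log2 fold change -0.75, adjusted p = 0.0286). It was not called by DESeq2 (adjusted p = 0.0953) or under total count scaling (adjusted p = 0.0571), and its adjusted p was 0.0572 to 0.162 without replicate 1 or 2 of shCon or replicate 2 of shUBXN1. NKX2-2, 1071391 bases from FOXA2 between start sites, rose from 247 and 251 counts to 360 and 322 (log2 fold change 0.51, adjusted p = 0.00465), and was not called without replicate 1 of shCon (adjusted p = 0.0725). Without that library 2 of the neighbours were called lower and none higher, and without replicate 1 of shUBXN1 2 were called higher.

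The genes most like each factor over the 4 libraries were sought among the 91 tested genes of the lists of other factors, hepatocyte genes and NR1H4 genes. Likeness was the Euclidean distance between log2 CPM values after each gene was centred on its mean, and with 4 libraries in 2 groups it mostly reflects the size of the change. HNF4A was nearest to NR1H2 at a distance of 0.0261, FOXA2 to ATF5 at 0.0811 and FOXA3 to ANG at 0.0839. NR1H4 was nearest to AHSG at 0.140, PROX1 to XBP1 at 0.169 and ONECUT1 to CEBPB at 0.187. FOXA1 and CEBPA shared UGT1A1 as their nearest gene, at 0.121 and 0.267, a gene that shares 50.1% of its exon bases with other UGT1A genes and whose counts are uncertain for that reason.

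The falls were found in genes of low and of high GC content. PROX1 and NR1H4 had transcripts of 40.7% and 40.6% GC, FOXA1 of 50.4% and CEBPA of 65.9%, where the median of the genes tested was 48.2%. With the trend of log2 CPM against GC removed in each library, CEBPA stood at -1.93, NR1H4 at -0.43 and HNF4A at -0.35. FOXA3 then passed the edgeR test at -0.55 (adjusted p = 0.0415).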

How the data were processed

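The data are 4 RNA-seq libraries of MHCC97H cells, 2 per group, placed in groups by the sample labels. The authors deposited expected counts per gene, not normalized and often not whole, with a gene length. The submitters' processing notes name HISAT2 2.0.4, StringTie 1.3.0 and GRCh37, whereas the methods name Hisat2 and GRCh38, and the counting tool, annotation release and use of strand are not given in the sources used here. Of the gene IDs, 61369 (99.7%) matched a symbol. The table holds no coordinates, so those printed are GENCODE v44 on GRCh38, joined by gene ID.

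Counts were rounded and passed through filterByExpr and TMM scaling. Differences were tested with no block by the quasi-likelihood functions glmQLFit and glmQLFTest (edgeR 4.0.16, R 4.3.3), which were first checked on simulated counts. The biological coefficient of variation was 0.0711, with 2 residual degrees of freedom per gene. Intervals cover 95% and come from the log2 fold change, its SE and a t quantile. That quantile uses the total degrees of freedom of edgeR, which add information shared across genes to the 2 residual ones. Intervals resting on the 2 alone would be wider. The counting interval of TLE2 covers counting error only. CPM used TMM-scaled library sizes, and TPM used the deposited gene length. A gene was called at a Benjamini-Hochberg adjusted p under 0.05, and separately at a fold change of 2 with an unadjusted p under 0.05.

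Alternatives were DESeq2 1.42.0, total count scaling, limma 3.58.1 on log2(TPM + 1), no filter, at least 10 counts in every library, a replicate block, removal of the GC trend and leaving out each library. The 8 factors, the gene lists and the tests were chosen with earlier results of these data known. All 8 factors were named. From each list the text names up to 3 genes called lower and 3 called higher with the largest change among those whose groups did not overlap and whose mean log2 CPM was above 0, or above -1 for transcription factors and neighbours. Some genes that this rule picks are not reported here. The nearest gene to each factor was also named, and genes at or near 0 for the marker check. The paralogs of the families, and albumin, transferrin, PPARGC1A, ASS1 and SERPINA1, were named after their values were seen.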

Additional observations from a re-analysis of the deposited data

How the results depend on the processing

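Over the 8 factors and 11 alternative settings, 86 of 88 values kept their direction and their side of the threshold. HNF4A ranged from -0.35 to -0.25 when each library was left out and lost its call without replicate 2 of shCon, and FOXA3 gained a call with the GC trend removed, at -0.55. Leaving out a library leaves 1 in that group, which is assumed to vary like the libraries of the other group. With the replicate block CEBPA was at -1.61, FOXA1 at -1.41 and PROX1 at -1.50, and no factor's call changed. Same-numbered libraries deviated with a correlation of 0.0393 over genes, and with 2 pairs the numbers are not taken as a pairing. Genes at a fold change of 2 numbered 524 lower and 1028 higher by limma, against 1027 and 1997, and 1321 higher with at least 10 counts in every library. When each library was left out, the cofactors called lower numbered 7 to 13, the neighbours called lower 2 to 4 and called higher 0 to 2, and the immune, endothelial and stromal markers called lower 1 to 3. Neighbours called higher were 2 under total count scaling, limma and GC removal, hepatocyte genes called higher were 3 with at least 10 counts in every library, where the immune, endothelial and stromal markers called lower were 2, and the bile acid genes' median was 0.013 with no filter. The cause was not tested, except that stricter and looser filters test fewer or more genes. Of the named genes' values, 410 kept direction and call and 11 lost the call, in TLE4, CEBPA-DT, NKX2-2, LRAT and CD68, with none reversed. Total count scaling moved the median of all genes to 0.10. Depth limits ONECUT1 and FOXA3 most.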

Other observations

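Markers of bile duct and progenitor cells, the alternative fate to the hepatocyte, changed in both directions beside the 8 factors. Of 20 listed, 14 could be tested by edgeR, 5 were called lower (35.7%, against 28.2% of all genes) and 6 higher (42.9%, against 28.0%), with a median log2 fold change of 0.31. KRT19, a keratin of bile ducts, fell from 7878 and 6823 counts to 2877 and 3067 (log2 fold change -1.24), while its partner in duct cells KRT7 rose from 1102 and 1034 to 2326 and 2232 (log2 fold change 1.15). SOX9, the factor of the ductal plate, was at 38.6 and 38.9 CPM in shCon and 35.9 and 41.1 CPM in shUBXN1, and its groups overlapped. The claudin CLDN4 fell (log2 fold change -1.29), as did SOX4 (-0.69). The mucin MUC1 rose from 245 and 195 counts to 1311 and 907, and GGT1 from 97 and 127 to 421 and 384, with 56.5% of GGT1 exon bases shared with another gene on the same strand. KRT7 and SOX9 were named after their values were seen.

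Of 20 markers of immune, endothelial and stromal cells, 9 could be tested, 4 were called lower (44.4%, against 28.2% of all genes) and 3 higher (33.3%, against 28.0%). The lower count was 1 without replicate 2 of shCon. KDR, a VEGF receptor, rose from 389 and 371 counts to 1192 and 1324, and the summed endothelial level was 48.6 to 50.1 CPM in shCon and 92.8 to 99.7 CPM in shUBXN1. The defining endothelial gene CDH5 had 3 and 6 counts in shCon and 0 in both shUBXN1 libraries. PECAM1 rose (log2 fold change 0.35), while LRAT (-1.37) and CD68 (-0.25) fell. COL1A1 rose from 10 and 4 counts to 58 and 59 (log2 fold change 3.11). Of the 6 stromal markers, 2 were called lower and 1 higher, again beside 28.2% and 28.0% of all genes. Their summed level was 3.68 to 4.17 CPM in shCon and 3.97 to 4.28 CPM in shUBXN1.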
